A study of Mus musculus with 12 samples.

Results

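The transcriptome of midbrain astrocytes that lack Cd38 was compared with that of wild-type astrocytes, using 6 Cd38-/- and 3 Cd38+/+ libraries of the 12 in the series. The remaining 3 libraries, of Cd38+/- mice, entered no comparison. The Cd38-/- mice were of strain B6.129P2-Cd38tm1Lnd/J, in which the gene is disrupted at exons 2 and 3 in every cell of the body. Per the methods, all mice were bred from C57BL/6J, and controls were matched by litter, by peers or by both. All were males of 12 to 14 months. Cells came from striatum, thalamus and substantia nigra, were depleted of endothelial cells, myelin or oligodendrocytes and CD11b+ cells, and were then captured with beads against the astrocyte antigen ACSA-2. The labels do not say whether each library came from a separate animal, so p-values measure the spread between these libraries only. Expression is given as TPM, a length-corrected share of each library, for 20614 genes. The 11722 genes with a mean above 5 TPM in either genotype were tested, and families of genes were then examined among the 7206 whose Cd38+/+ mean was above 20 TPM, so that genes poorly detected in wild type did not carry a result. A gene was said to be without overlap where all 6 Cd38-/- libraries lay on 1 side of all 3 Cd38+/+ libraries. At these limits, Fgf14 (a mean of 5.00 TPM in Cd38-/-) lay just inside the tested set and Rexo5 (4.998) just outside, while Pygl (20.01 TPM in Cd38+/+) lay just inside the well expressed set and Sipa1l2 (exactly 20 TPM) outside it.

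CD38 is a membrane enzyme that consumes nicotinamide adenine dinucleotide (NAD), breaking most of it down to nicotinamide and ADP-ribose and turning a small part into cyclic ADP-ribose, a messenger that releases calcium from the endoplasmic reticulum. Because CD38 consumes NAD, its loss is known to raise tissue NAD. NAD carries electrons to the respiratory chain and is also the substrate of sirtuins and poly(ADP-ribose) polymerases. Astrocytes clear glutamate, potassium and water from the extracellular space, feed neurons with lactate and lipids, and respond to injury by raising intermediate filament and complement genes.

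The wild-type libraries were the less complete ones. They listed 13160 to 13516 genes above 0 (median 13476), against 15920 to 17906 (median 16318) in Cd38-/-, and pairs of Cd38+/+ libraries correlated across genes at Pearson's r of 0.827 to 0.848, against 0.946 to 0.978 among Cd38-/- libraries (genes are not independent replicates). Among well expressed genes, the median standard deviation (SD) of log2(TPM + 1) was 0.38 in Cd38+/+ and 0.20 in Cd38-/-, and 14 of them were listed at 0 in a Cd38+/+ library against 2 in a Cd38-/- library. Fitted with limma, with 1 spread for both genotypes, 970 genes had a Storey q under 0.05 and a change of at least 1.2-fold and are called here (8.28% of those tested): 752 higher (6.42%) and 218 lower (1.86%) in Cd38-/-. The balance depended on the scaling, with 553 higher and 392 lower after median-ratio scaling, 577 and 387 after quantile normalization, and 397 and 871 after the trend of each library on length and GC content of transcripts had been removed. When each genotype kept its own spread, 0 genes were called higher and 2 lower, namely Cd38 (q = 2.26e-06) and Pcdhgc4 (q = 0.0135); 1112 genes then had an unadjusted limma p under 0.05, against 2767 in the first fit. Every other call below therefore rests on the assumption that both genotypes spread alike. The calls depended on single libraries. Without 1 Cd38+/+ library more genes were called in all, and 802 to 943 of the 970 kept their call. Without 1 Cd38-/- library fewer were called, and of the 970 the calls kept numbered 73 without replicate 2, 92 without replicate 5, 112 without replicate 1, 152 without replicate 6, 552 without replicate 3 and 708 without replicate 4. All 9 fits that left out 1 library called 70 of them. For each called gene, the values in parentheses are the standard error of the log2 fold change, the limma q and the highest q over those 9 fits. Fold changes are on the log2(TPM + 1) scale, which understates the change of low genes; their median was 0.15 over tested and 0.06 over well expressed genes, and the medians of gene lists are given after subtraction of the latter.

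Cd38 (ENSMUSG00000029084; chromosome 5, 43868553 to 43912375 on GRCm38) checked the labels first. It was at 149, 120.0 and 105 TPM in the Cd38+/+ libraries, and the Cd38-/- libraries ran from 8.54 to 21.9 TPM (median 15.7), so that the genotypes did not overlap. The transcript fell by 2.96 on the log2 scale (standard error 0.28, limma q = 0.00116, at most 0.00607), and a 2-sided exact permutation test gave p = 0.0238, the smallest that the 84 possible regroupings of the libraries allow. The residual TPM is a gene-level sum that includes exons outside the disrupted ones. The other NAD-consuming ectoenzyme, Bst1, was listed at 0 to 0.21 TPM in Cd38+/+ and at most 0.38 TPM in Cd38-/-, and the axonal NAD hydrolase Sarm1 at 0 to 3.06 and 2.35 to 5.39 TPM, both below the limit for testing.

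Of the well expressed genes, 730 (10.1%) were without overlap: 383 higher (5.32%) and 347 lower (4.82%) in Cd38-/-. Of the same genes, 492 (6.83%) were called, 293 higher (4.07%) and 199 lower (2.76%), and 395 (214 higher, 181 lower) met both criteria. Median-ratio scaling turned the balance of genes without overlap to 230 higher (3.19%) and 579 lower (8.03%), quantile normalization to 382 (5.3%) and 434 (6.02%), and removal of the length and GC trend to 131 (1.82%) and 934 (13%). These scalings moved all genes: the median of well expressed genes went from 0.06 as deposited to -0.07, 0.01 and -0.14. In all, 99 higher and 283 lower genes were without overlap under every scaling. A group of 32 genes, 12 higher and 20 lower, was well expressed, without overlap and called in every fit that left out 1 library. Those fits all kept 1 spread for both genotypes, and with separate spreads only Cd38 and Pcdhgc4 were called. Besides Cd38, the genes of the group with the largest drops were Igfbp3, which encodes a secreted carrier of insulin-like growth factors, Pcdhgc4, a clustered protocadherin, and Sod3, the extracellular superoxide dismutase.
Igfbp3 had 32.7, 19.3 and 19.2 TPM in Cd38+/+ and 4.01 to 7.31 TPM (median 5.78) in Cd38-/-, and fell by 1.82 (standard error 0.30, limma q = 0.00947, at most 0.0372). Pcdhgc4 had 56.6, 65.4 and 68.2 TPM in Cd38+/+ and 10.1 to 25.5 TPM (median 20.8) in Cd38-/-, and fell by 1.77 (standard error 0.27, limma q = 0.00700, at most 0.0268). Sod3 had 52.9, 38.4 and 38.7 TPM in Cd38+/+ and 9.18 to 20.1 TPM (median 17.1) in Cd38-/-, and fell by 1.38 (standard error 0.25, limma q = 0.0144, at most 0.0461). In all 3 genes the highest Cd38-/- library remained well under the lowest Cd38+/+ library. Pcdhgc4 shares its constant exons with the other genes of the gamma cluster, so that the split of reads among them is uncertain.
Polr3gl is a subunit of RNA polymerase III. It had 21.7, 29.01 and 26.1 TPM in Cd38+/+ and 7.04 to 13.2 TPM (median 9.01) in Cd38-/-, and fell by 1.35 (standard error 0.26, limma q = 0.0162, at most 0.0489). Nr2f1 is a nuclear receptor that patterns the brain. It had 49.02, 44.5 and 62.7 TPM in Cd38+/+ and 17.2 to 27.5 TPM (median 22.9) in Cd38-/-, and fell by 1.17 (standard error 0.20, limma q = 0.0109, at most 0.0372). G0s2, an inhibitor of triglyceride lipolysis, had 91.9, 136 and 143 TPM in Cd38+/+ and 48.04 to 73.5 TPM (median 64.6) in Cd38-/-, and fell by 0.94 (standard error 0.18, limma q = 0.0150, at most 0.0461). Polr3gl, Nr2f1 and G0s2 belong to the same group, which by definition is without overlap and called in every fit that left out 1 library.
On the higher side of the same group were Stam, Ddx3x and Actb. Stam is an endosomal sorting adaptor. It had 34.02, 17.3 and 17.96 TPM in Cd38+/+ and 57.3 to 74.5 TPM (median 66.2) in Cd38-/-, and rose by 1.55 (standard error 0.21, limma q = 0.00491, at most 0.0228). Ddx3x is an RNA helicase encoded on the X chromosome. It had 20.04, 23.2 and 22.8 TPM in Cd38+/+ and 41.2 to 61.6 TPM (median 51.7) in Cd38-/-, and rose by 1.18 (standard error 0.18, limma q = 0.00616, at most 0.0268). Actb, which encodes cytoplasmic beta-actin, had 1151, 1296 and 1629 TPM in Cd38+/+ and 2030.3 to 3019 TPM (median 2632) in Cd38-/-, and rose by 0.93 (standard error 0.16, limma q = 0.0107, at most 0.0354). The lowest Cd38-/- library exceeded the highest Cd38+/+ library by a clear margin in all 3. Ecrg4, a secreted peptide hormone precursor, Slc44a1, a choline transporter, and Parn, a poly(A) ribonuclease, belonged to the same group with log2 fold changes of 0.94, 1.06 and 0.90.

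**Figure D1:**
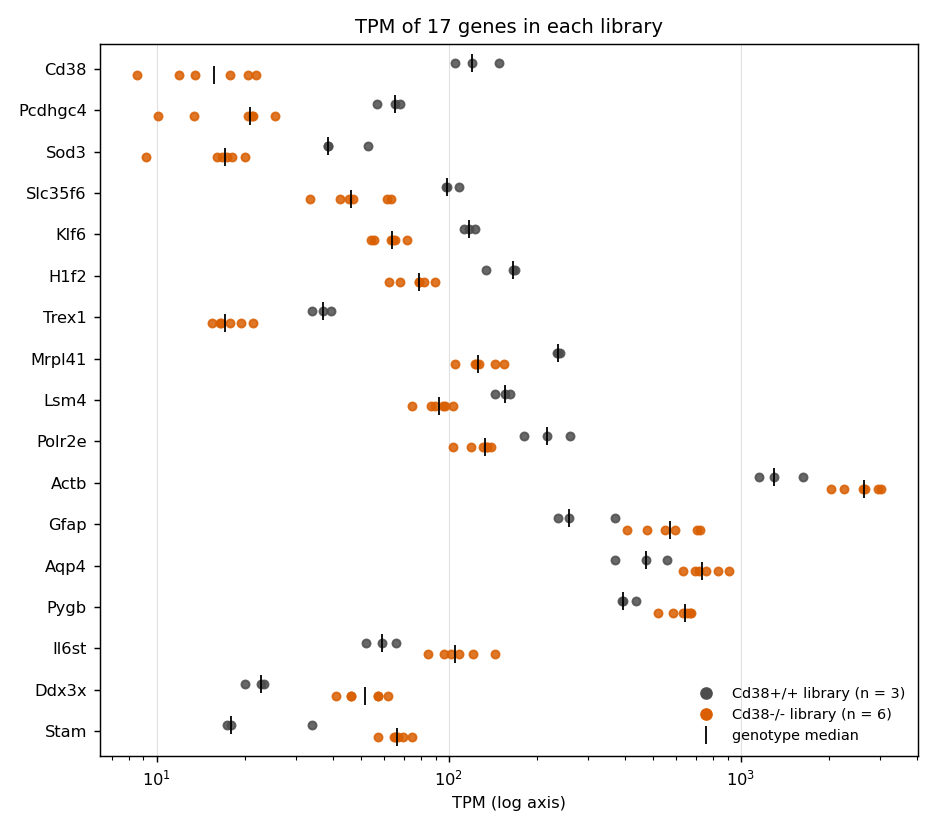
TPM (log axis) of 17 genes in each of the 3 Cd38+/+ (grey) and 6 Cd38-/- (orange) libraries; each point is a library and the bar is the genotype median. All 17 were picked from genes without overlap, and the widest gap is in Cd38 (104.88 TPM or more against 21.86 TPM or less).

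The remaining genes with the largest drops among called genes without overlap were less stable. Xlr3b, an X-linked imprinted gene with near-identical copies, whose reads could be split among them, had 21.99, 36.8 and 11.1 TPM in Cd38+/+ and 0 to 7.72 TPM (median 2.92) in Cd38-/-, and fell by 2.62 (standard error 0.61, limma q = 0.0249, at most 0.0633). The others were Ecm1 and Spp1, which encode secreted matrix proteins, Lims2, an adaptor of focal adhesions, Neu4, a sialidase, Basp1, a membrane-bound protein of growth cones, and Rfc5, a subunit of the DNA clamp loader. Their log2 fold changes were -1.32, -1.20, -1.32, -1.26, -1.18 and -1.17 (limma q from 0.0195 to 0.0439), each with a call that was lost in some fit without 1 library. Neu4 served here as a marker of oligodendrocyte precursors; Cd38-/- libraries held 5.92 to 29.1 TPM (median 11.5) against 30.3, 32.1 and 29.7 TPM in Cd38+/+, so the highest of the former lay just below the lowest of the latter. The summed TPM of the 8 precursor markers ran from 114 to 189 in Cd38+/+ and from 52.4 to 184 in Cd38-/-, and its part in the value of Neu4 was not tested.
On the higher side, Kif5a is a heavy chain of the kinesin motor. It had 54.03, 65.3 and 41.03 TPM in Cd38+/+ and 83.9 to 262 TPM (median 127) in Cd38-/-, and rose by 1.32 (standard error 0.29, limma q = 0.0207, at most 0.0592). Igsf11, an adhesion molecule of the immunoglobulin superfamily, rose by 1.13 (standard error 0.31, limma q = 0.0362, at most 0.0892). Zmym6, a zinc finger protein, rose by 1.13 (standard error 0.31, limma q = 0.0362, at most 0.0856), and Rmdn3, which tethers mitochondria to the endoplasmic reticulum, by 1.17 (standard error 0.35, limma q = 0.0460, at most 0.0990). In Rmdn3 the genotypes barely separated, from 8.09, 19.9 and 40.7 TPM in Cd38+/+ to 40.96 to 46.4 TPM (median 44.3) in Cd38-/-, and they overlapped after median-ratio scaling, after quantile normalization and after the transcript length and GC trend was removed.

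Immediate early genes and Krueppel-like factors leaned lower in Cd38-/- under every scaling. They are mainly transcription factors that are induced within minutes by growth factors, injury or handling of cells. Of the 26 well expressed members 6 (23.1%) were without overlap, all lower in Cd38-/- and all called, against the background of 4.82% without overlap on that side; 0 were higher, and 5 of the 26 had a log2 fold change above 0. The median of the list lay 0.48 below that of well expressed genes, and between 0.43 and 0.51 below it under median-ratio scaling, quantile normalization and removal of the length and GC trend. The 9 Klf factors alone lay 0.69 below.
Klf6, induced by injury (chromosome 13, 5861482 to 5870394), had 118, 123 and 113 TPM in Cd38+/+ and 54.2 to 71.8 TPM (median 63.9) in Cd38-/-, and fell by 0.91 (standard error 0.13, limma q = 0.00616, at most 0.0280). Klf13, a repressor that binds GC-rich sites (chromosome 7, 63886351 to 63938915), had 106, 65.8 and 111 TPM in Cd38+/+ and 30.5 to 60.01 TPM (median 48.98) in Cd38-/-, and fell by 0.99 (standard error 0.24, limma q = 0.0274, at most 0.0611). Klf15, a glucocorticoid-responsive regulator of amino acid and lipid metabolism (chromosome 6, 90462576 to 90475238), had 269, 314 and 267 TPM in Cd38+/+ and 165 to 229 TPM (median 205) in Cd38-/-, and fell by 0.49 (standard error 0.12, limma q = 0.0318, at most 0.0734). The Cd38+/+ libraries of Klf6 stood in a narrow band above all others, while those of Klf13 reached down to the top of the Cd38-/- range.
Gadd45g, a stress-induced regulator of demethylation and MAP kinases (chromosome 13, 51846678 to 51848468), had 507, 261 and 280.5 TPM in Cd38+/+ and 143 to 243 TPM (median 169) in Cd38-/-, and fell by 0.94 (standard error 0.21, limma q = 0.0232, at most 0.0633). Junb is a subunit of the AP-1 factor. It had 151, 92.3 and 63.1 TPM in Cd38+/+ and 38.9 to 58.7 TPM (median 45.1) in Cd38-/-, and fell by 1.03 (standard error 0.24, limma q = 0.0249, at most 0.0678). Nfkbia, the inhibitor of NF-kappaB that this factor itself induces (chromosome 12, 55489410 to 55492647), had 302, 262 and 206 TPM in Cd38+/+ and 145 to 199.9 TPM (median 179) in Cd38-/-, and fell by 0.55 (standard error 0.15, limma q = 0.0362, at most 0.0847). Klf6 kept its call in all 9 fits without 1 library; the other 5 did not. For Junb the genotypes overlapped after quantile normalization and after the length and GC trend was removed.
Other members did not pass. Klf2 had 109, 67.2 and 44.8 TPM in Cd38+/+ and 18.5 to 64.6 TPM (median 39.05) in Cd38-/- (log2 fold change -0.92, limma q = 0.0927), and Egr1 had 54.7, 40.4 and 22.9 TPM in Cd38+/+ and 13.4 to 36.4 TPM (median 19.4) in Cd38-/- (-0.83, limma q = 0.0847). Fos had 73.2, 103 and 46.9 TPM in Cd38+/+ and 31.8 to 86.2 TPM (median 56.4) in Cd38-/- and Jun 146, 195 and 113 TPM in Cd38+/+ and 97.8 to 195 TPM (median 126) in Cd38-/-, with the genotypes overlapping in both. Klf12 was the one well expressed Klf factor with a value above 0 (0.59, limma q = 0.111). The list was labelled for dissociation as well as for signalling, and whether handling of the tissue differed between genotypes was not tested.

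**Figure D2:**
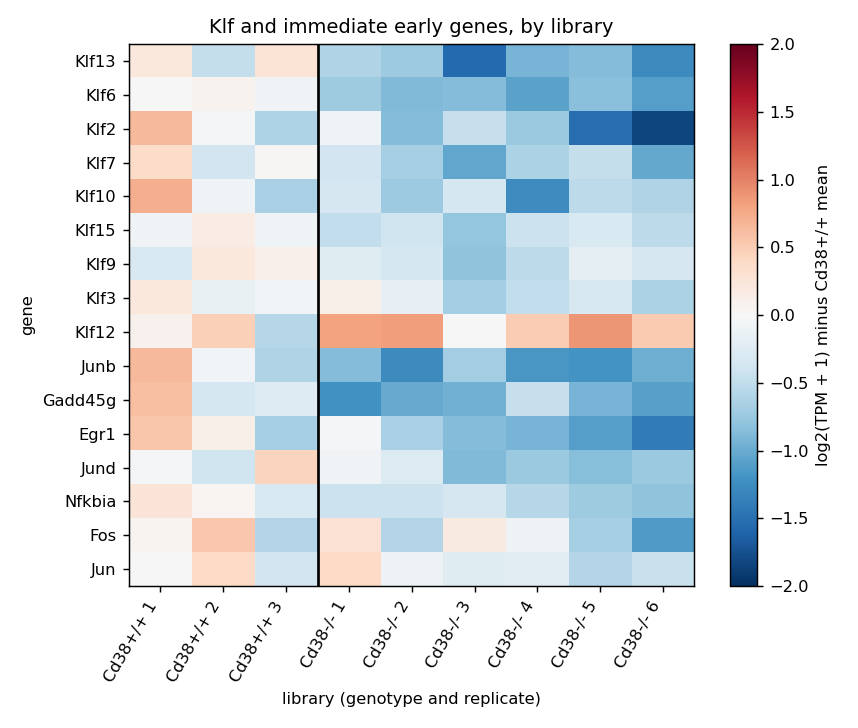
Log2(TPM + 1) of 9 Klf factors and 7 immediate early genes in each library, as the difference from the Cd38+/+ mean (colour scale from -2, blue, to 2, red; the vertical line separates 3 Cd38+/+ from 6 Cd38-/- libraries). Klf13, Klf6, Klf15, Junb, Gadd45g and Nfkbia are lower in all 6 Cd38-/- libraries than in any Cd38+/+ library, whereas Fos and Jun are mixed.

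Promoters are shown for 5 of the 6 immediate early and Klf genes that were picked for being without overlap. They are taken from RefSeq on GRCm38.p6, as the 250 bases before the start of transcription in the sense direction. Capitals mark the CCAAT box (CCAAT, or ATTGG on the other strand), which lay in 4 of the 5 windows printed, in that of Junb, which is not printed, and in 37.9% of the 5848 well expressed genes with a window. Of the motifs searched, the CCAAT box lay in the largest share of the 6 windows, and only it is marked.
Klf6: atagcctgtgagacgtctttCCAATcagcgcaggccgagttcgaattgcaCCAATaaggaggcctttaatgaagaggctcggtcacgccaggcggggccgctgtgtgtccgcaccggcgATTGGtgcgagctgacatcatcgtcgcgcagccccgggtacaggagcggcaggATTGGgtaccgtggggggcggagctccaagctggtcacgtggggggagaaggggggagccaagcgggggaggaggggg
Klf13: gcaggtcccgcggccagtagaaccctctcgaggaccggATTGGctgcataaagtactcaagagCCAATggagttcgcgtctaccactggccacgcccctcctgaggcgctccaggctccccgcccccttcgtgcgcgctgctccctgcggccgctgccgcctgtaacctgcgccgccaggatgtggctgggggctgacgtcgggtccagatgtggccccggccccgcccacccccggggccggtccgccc
Klf15: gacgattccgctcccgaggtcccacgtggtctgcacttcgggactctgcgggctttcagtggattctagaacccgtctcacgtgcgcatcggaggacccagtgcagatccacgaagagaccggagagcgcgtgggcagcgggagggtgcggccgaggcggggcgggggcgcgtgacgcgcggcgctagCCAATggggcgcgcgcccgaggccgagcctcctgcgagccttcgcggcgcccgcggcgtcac
Gadd45g: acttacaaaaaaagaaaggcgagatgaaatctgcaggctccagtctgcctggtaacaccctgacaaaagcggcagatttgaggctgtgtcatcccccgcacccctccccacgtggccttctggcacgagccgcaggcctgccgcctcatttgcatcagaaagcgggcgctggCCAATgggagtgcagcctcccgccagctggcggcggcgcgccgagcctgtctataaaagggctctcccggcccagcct
Nfkbia: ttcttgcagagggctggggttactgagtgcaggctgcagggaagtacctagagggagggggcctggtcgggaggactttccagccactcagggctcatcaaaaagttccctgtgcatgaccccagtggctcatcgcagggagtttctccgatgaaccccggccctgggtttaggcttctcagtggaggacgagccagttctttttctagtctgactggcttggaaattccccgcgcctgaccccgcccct
These windows are chr13:5861239-5861488, plus strand; chr7:63938916-63939165, minus strand; chr6:90462326-90462575, plus strand; chr13:51846425-51846674, plus strand; and chr12:55492648-55492897, minus strand, in the order printed. Klf6 carried 4 CCAAT boxes, Klf13 held 2, Klf15 and Gadd45g 1 each, and Nfkbia 0. The letters of the E box CACGTG, palindromic and so the same on both strands, were found in 3 of the 6 windows (9.03% of well expressed genes), and the TATA box TATAAA in 1, that of Gadd45g at 27 bases before the start (6.12%). The cAMP response element TGACGTCA and the AP-1 site TGAGTCA, searched on both strands, were in 0 of 6 windows (3.08% and 2.60% of well expressed genes). Among all well expressed genes without overlap, the CCAAT box was in 34.6% of 283 windows on the lower side and 33.2% of 298 on the higher side. A match of letters is a description and does not show that a factor binds.

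Several lists of mitochondrial genes leaned lower in Cd38-/-. The mitochondrial ribosome, which translates the respiratory proteins encoded in mitochondrial DNA, had 77 well expressed members, of which 7 (9.09%, beside 4.82% of all well expressed genes) were lower and 2 (2.6%, beside 5.32%) higher without overlap and 5 (6.49%, beside 6.83%) were called, all lower; its median lay 0.23 below that of well expressed genes (0.09 to 0.23 below under the other scalings). Once the length and GC trend was removed, 12 of the 77 were lower and 0 higher without overlap, beside 13% and 1.82% of all well expressed genes.
Mrpl41, of the large subunit, had 241, 234 and 236 TPM in Cd38+/+ and 105 to 155 TPM (median 125) in Cd38-/-, and fell by 0.88 (standard error 0.13, limma q = 0.00616, at most 0.0283). Mrpl51, of the same subunit, had 133, 160.2 and 149.9 TPM in Cd38+/+ and 82.3 to 108 TPM (median 97.7) in Cd38-/-, and fell by 0.60 (standard error 0.13, limma q = 0.0207, at most 0.0595). Mrps12, which lies near the decoding site of the small subunit, had 167, 154 and 189 TPM in Cd38+/+ and 101 to 136 TPM (median 117) in Cd38-/-, and fell by 0.51 (standard error 0.14, limma q = 0.0342, at most 0.0821). Mrpl41 was tight in Cd38+/+ and called in all 9 fits; the calls of the other mitochondrial ribosome genes were not.
The protein import machinery had 31 well expressed members, of which 4 (12.9%, beside 4.82%) were lower without overlap and 0 higher (beside 5.32%), and a median 0.20 below (0.14 to 0.20 below under the other scalings). With the length and GC trend removed 8 of the 31 were lower and 0 higher, beside 13% and 1.82% of all well expressed genes. Timm10b, a chaperone of the inner membrane translocase, had 182, 168 and 130.1 TPM in Cd38+/+ and 81.04 to 118 TPM (median 100.3) in Cd38-/-, and fell by 0.66 (standard error 0.16, limma q = 0.0276, at most 0.0723). Tomm5, a small subunit of the outer membrane translocase, fell by 0.54 (standard error 0.16, limma q = 0.0439, at most 0.0958). Tomm40 is the channel of that translocase. It had 129, 135 and 134 TPM in Cd38+/+ and 89.9 to 115 TPM (median 105) in Cd38-/-, a difference without overlap that did not pass (log2 fold change -0.35, limma q = 0.0591). Hspa9, the mitochondrial HSP70 that pulls proteins through the inner membrane, was the one member called higher; it had 99.8, 87.5 and 168 TPM in Cd38+/+ and 155 to 209 TPM (median 169.7) in Cd38-/-, with overlap, and rose by 0.62 (standard error 0.19, limma q = 0.0480, at most 0.108).
Of 37 well expressed subunits of complex I, the NADH dehydrogenase, 4 (10.8%, beside 4.82%) were lower without overlap and 0 higher. Once the length and GC trend was removed, 8 were lower and 0 higher, beside 13% and 1.82% of all well expressed genes. The median of these 37 subunits lay 0.22 below (0.08 to 0.22 below under the other scalings). Only Ndufb7 (2.7%, beside 6.83%) was called among them; it had 389.6, 459 and 451 TPM in Cd38+/+ and 233 to 345 TPM (median 309) in Cd38-/-, and fell by 0.52 (standard error 0.14, limma q = 0.0350, at most 0.0856). Ndufa12 had 676, 529 and 584 TPM in Cd38+/+ and 329.9 to 523 TPM (median 460.2) in Cd38-/-, and Ndufa10 221, 294 and 208 TPM in Cd38+/+ and 167 to 203 TPM (median 187) in Cd38-/-, each without overlap but with limma q of 0.0741 and 0.0793; Ndufa10 overlapped after quantile normalization. The 12 subunits of complex IV lay 0.15 below, but 0.03 above after the length and GC trend was removed, and the 17 of ATP synthase lay 0.05 below, but 0.01 above after quantile normalization and 0.08 above after removal of the trend, with 0 members without overlap.
Among 15 assembly factors of complex IV, 3 (20%, beside 4.82%) were lower and 1 (6.67%, beside 5.32%) higher without overlap. With the length and GC trend removed 3 were lower and 0 higher, beside 13% and 1.82% of all well expressed genes. Cox10, which makes haem O for that complex, had 33.97, 39.2 and 46.97 TPM in Cd38+/+ and 16.6 to 24.2 TPM (median 19.5) in Cd38-/-, and fell by 0.95 (standard error 0.20, limma q = 0.0192, at most 0.0527). The other 2 lower members were Cox20 and Coa7, with log2 fold changes of -0.53 and -0.49 that did not pass (limma q = 0.0629 and 0.0715), and the higher member was Coa5, with one of 0.30 (limma q = 0.186). Sdhaf2, which attaches flavin to complex II, lay outside that list and went the other way, from 29.8, 16.3 and 34.1 TPM in Cd38+/+ to 47.2 to 55.97 TPM (median 53.3) in Cd38-/-, and rose by 1.01 (standard error 0.21, limma q = 0.0195, at most 0.0607).

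Genes that feed carbon into the mitochondrion leaned higher. Of 31 well expressed genes of pyruvate entry and the TCA cycle 4 (12.9%, beside 5.32%) were higher without overlap and 0 lower. Once the length and GC trend was removed, 0 were higher and 2 lower, beside 1.82% and 13% of all well expressed genes. The median lay 0.10 above that of well expressed genes (0.03 to 0.17 above under the other scalings). Pdha1 is the E1 subunit of pyruvate dehydrogenase. It had 83.8, 99.1 and 94.8 TPM in Cd38+/+ and 114 to 156 TPM (median 144) in Cd38-/-, and rose by 0.58 (standard error 0.14, limma q = 0.0263, at most 0.0734). Idh3a, a subunit of the NAD-dependent isocitrate dehydrogenase, had 152, 173 and 197 TPM in Cd38+/+ and 198 to 261 TPM (median 239) in Cd38-/-, and rose by 0.43 (standard error 0.13, limma q = 0.0433, at most 0.101). Glud1, the glutamate dehydrogenase, and Sucla2, of succinyl-CoA synthetase, had no overlap but did not pass (limma q = 0.101 and 0.129). All 4 overlapped once the length and GC trend was removed, and Glud1 and Sucla2 also after median-ratio scaling.
Genes of mitochondrial fusion and fission showed 3 higher (30%, beside 5.32%) and 0 lower without overlap among 10. Once the length and GC trend was removed there was 1 on each side, beside 1.82% higher and 13% lower of all well expressed genes. Mief2, which recruits the fission protein Drp1, had 20.8, 18.4 and 31.9 TPM in Cd38+/+ and 33.6 to 44.7 TPM (median 38.8) in Cd38-/-, and rose by 0.73 (standard error 0.20, limma q = 0.0382, at most 0.0947). Mfn1 is the outer membrane mitofusin. It had 153, 123 and 135 TPM in Cd38+/+ and 165 to 232 TPM (median 204) in Cd38-/-, and rose by 0.54 (standard error 0.14, limma q = 0.0308, at most 0.0815). Mff is a further Drp1 receptor. It had 225, 208 and 165 TPM in Cd38+/+ and 228 to 270.0 TPM (median 246) in Cd38-/- (limma q = 0.0832). The mitophagy receptor Fundc1 had 48.97, 77.6 and 83.5 TPM in Cd38+/+ and 85.6 to 109.7 TPM (median 102) in Cd38-/-, and rose by 0.56 (standard error 0.17, limma q = 0.0492, at most 0.104), while the mitochondrial topoisomerase Top1mt fell by 0.67 (standard error 0.20, limma q = 0.0469, at most 0.104). Of these 5 genes Mief2 and Top1mt were without overlap under every scaling.

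**Figure D3:**
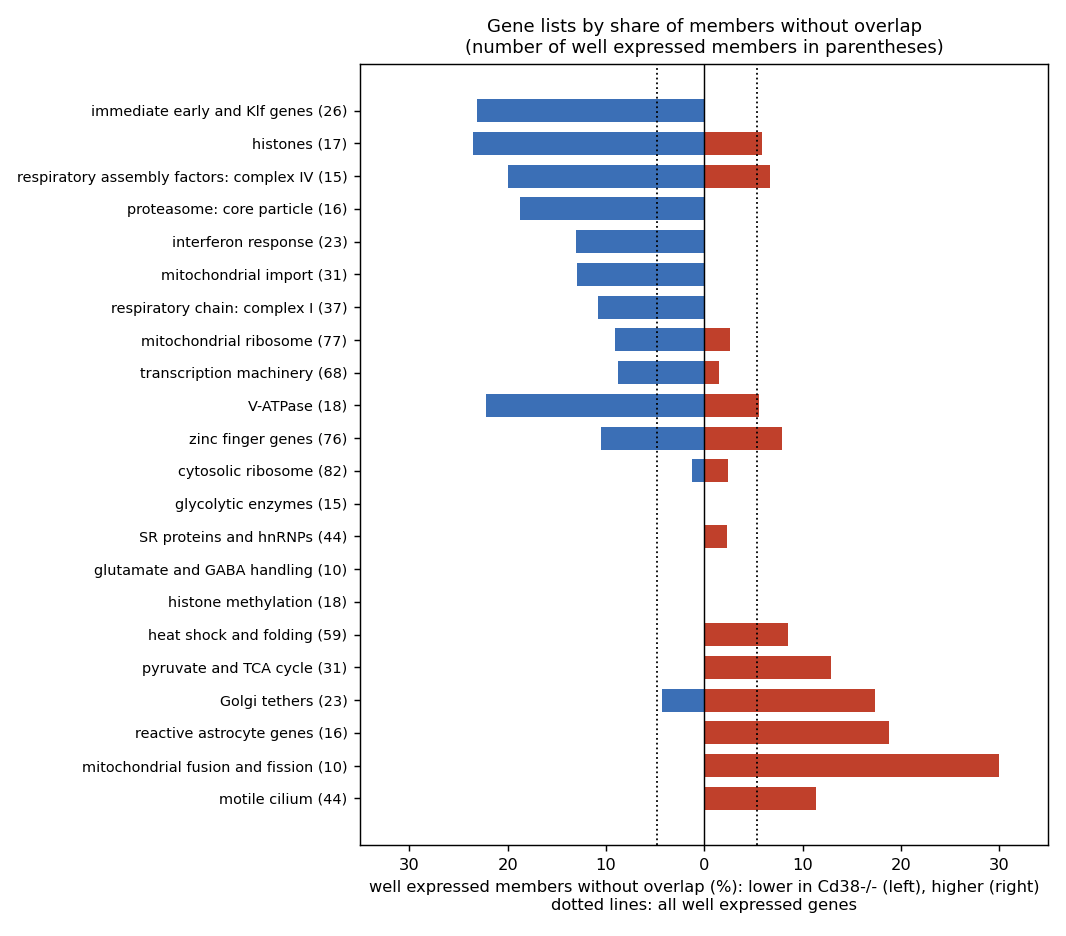
Share of well expressed members without overlap (%) in 22 gene lists, lower in Cd38-/- to the left and higher to the right; the dotted lines mark the shares over all well expressed genes (4.82% and 5.32%). Immediate early and Klf genes, the proteasome core and complex I have members on the left only, and glycolytic enzymes, glutamate and GABA genes and histone methylation genes have none on either side.

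In NAD metabolism, the pathway of the CD38 enzyme, 3 of 21 well expressed members were called (14.3%, beside 6.83%). Without overlap, 2 were higher (9.52%, beside 5.32%) and 4 lower (19%, beside 4.82%). Cd38 itself, whose drop is set by the genotype, is counted among both the called and the lower genes and raises these shares. With the length and GC trend removed 0 were higher and 4 lower, beside 1.82% and 13% of all well expressed genes. Naprt, which makes NAD from nicotinic acid, had 104, 121 and 103 TPM in Cd38+/+ and 64.5 to 83.9 TPM (median 73.5) in Cd38-/-, and fell by 0.57 (standard error 0.14, limma q = 0.0276, at most 0.0753). Nadk2, the mitochondrial NAD kinase, had 101, 99.1 and 92.3 TPM in Cd38+/+ and 119 to 149 TPM (median 129) in Cd38-/-, and rose by 0.43 (standard error 0.12, limma q = 0.0384, at most 0.0909). That call was lost after median-ratio scaling (0.31, limma q = 0.0747), and once the length and GC trend was removed the genotypes overlapped (0.04, limma q = 0.460). Nampt, the rate-limiting enzyme of nicotinamide salvage, was low in both genotypes, with 9.87, 13.8 and 14.1 TPM in Cd38+/+ and 10.7 to 17.2 TPM (median 15.3) in Cd38-/- (limma q = 0.365). Parp1 is the main DNA damage polymerase. It had 23.9, 21.6 and 21.99 TPM in Cd38+/+ and 26.6 to 40.01 TPM (median 33.98) in Cd38-/-, whereas Parp11, which adds single ADP-ribose units, had 20.9, 26.3 and 26.9 TPM in Cd38+/+ and 10.04 to 17.5 TPM (median 14.2) in Cd38-/-; neither passed (limma q = 0.0738 and 0.0512). The mitochondrial deacylase Sirt5 was lower without overlap but not called (limma q = 0.0626), and 0 of 5 well expressed sirtuins were called.
Cyclic ADP-ribose opens calcium stores, and of the 3 well expressed calcium pumps 1, Atp2a2, was called higher. Of all 6 pumps tested, 3 were called higher, beside 6.42% of all tested genes, and 0 lower. Atp2a2 is the SERCA2 pump that refills the endoplasmic reticulum. It had 209.7, 244 and 199.8 TPM in Cd38+/+ and 259 to 453 TPM (median 372) in Cd38-/-, and rose by 0.70 (standard error 0.16, limma q = 0.0253, at most 0.0683). Atp2a3, the SERCA3 pump, had 17.6, 27.7 and 8.86 TPM in Cd38+/+ and 39.8 to 59.8 TPM (median 45.3) in Cd38-/-, and rose by 1.45 (standard error 0.28, limma q = 0.0165, at most 0.0519). Atp2b2 is a pump of the plasma membrane. It had 5.29, 12.03 and 8.99 TPM in Cd38+/+ and 13.96 to 27.7 TPM (median 24.1) in Cd38-/-, and rose by 1.29 (standard error 0.30, limma q = 0.0263, at most 0.0734). The last pair lay under the limit of 20 TPM in wild type and were without overlap under every scaling; Atp2a2 overlapped once the length and GC trend was removed. Of 31 well expressed genes of calcium storage, 2 were higher (6.45%, beside 5.32%) and 0 lower without overlap. Once the length and GC trend was removed, 0 were higher and 4 lower, beside 1.82% and 13% of all well expressed genes. The release channels showed 0 of 3 on either side as deposited.

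Some genes of the proteasome core and of the interferon response were lower. Of the 16 well expressed subunits of the proteasome core 3 (18.8%, beside 4.82%) were lower without overlap, all called, and 0 were higher. Psmb10 is a catalytic subunit of the immunoproteasome that interferon induces. It had 134, 109 and 124 TPM in Cd38+/+ and 51.4 to 90.1 TPM (median 72.3) in Cd38-/-, and fell by 0.80 (standard error 0.18, limma q = 0.0232, at most 0.0640). Psmb8, another such subunit, had 77.7, 58.5 and 62.04 TPM in Cd38+/+ and 36.4 to 57.4 TPM (median 41.4) in Cd38-/-, and fell by 0.62 (standard error 0.18, limma q = 0.0418, at most 0.0960). The remaining member, the constitutive subunit Psma1, had 254, 241 and 249.8 TPM in Cd38+/+ and 184 to 214 TPM (median 191) in Cd38-/-, and fell by 0.35 (standard error 0.10, limma q = 0.0433, at most 0.101).
Among 23 interferon response genes 3 (13%, beside 4.82%) were lower and 0 higher without overlap. They were both immunoproteasome genes and Irf3, the transcription factor that starts the interferon response (log2 fold change -0.29, limma q = 0.120). The proteasome core shares both immunoproteasome genes with this list, so the counts of these lists are not independent. For Psmb8 and Irf3 the genotypes overlapped after quantile normalization, which left Psmb10, and for Irf3 also after the length and GC trend was removed. Of the 23 interferon response genes, 1 was thus lower without overlap after quantile normalization, beside 6.02% of all well expressed genes. With the trend removed 3 of the 23 were lower, no more than the background of 13%. Trex1, the exonuclease that removes cytosolic DNA and one of 5 well expressed sensors of nucleic acids, had 34.1, 37.1 and 39.4 TPM in Cd38+/+ and 15.4 to 21.3 TPM (median 17.2) in Cd38-/-, and fell by 1.01 (standard error 0.19, limma q = 0.0150, at most 0.0519). Of the 10 well expressed genes of antigen presentation 0 were without overlap.
The wider proteasome moved both ways: Psmd10, an assembly chaperone of the regulatory particle, fell by 0.51 (standard error 0.15, limma q = 0.0450, at most 0.104), Psmg3, an assembly chaperone of the core, by 0.52 (standard error 0.15, limma q = 0.0426, at most 0.0943), and Psmd14, its deubiquitinase, rose by 0.47 (standard error 0.13, limma q = 0.0379, at most 0.0892).

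Several histone and transcription genes fell. Of 17 well expressed histone genes, a list renewed with current symbols after the data were seen, 4 (23.5%, beside 4.82%) were lower and 1 (5.88%, beside 5.32%) higher without overlap, and the median lay 0.32 below (0.17 to 0.32 below under the other scalings). H1f2 is a linker histone. It had 134, 165 and 169 TPM in Cd38+/+ and 62.3 to 89.4 TPM (median 79.2) in Cd38-/-, and fell by 1.02 (standard error 0.15, limma q = 0.00584, at most 0.0253). H2ax, whose phosphorylated form marks DNA breaks, had 92.8, 109.9 and 105 TPM in Cd38+/+ and 43.3 to 63.1 TPM (median 49.1) in Cd38-/-, and fell by 1.00 (standard error 0.16, limma q = 0.00897, at most 0.0328). H2ac18 is a core histone. It had 507, 579 and 672 TPM in Cd38+/+ and 365 to 501 TPM (median 415) in Cd38-/-, and fell by 0.44 (standard error 0.13, limma q = 0.0479, at most 0.107). H2bc6 was the member that rose, from 18.3, 23.8 and 25.1 TPM in Cd38+/+ to 30.7 to 48.5 TPM (median 34.2) in Cd38-/-, by 0.71 (standard error 0.20, limma q = 0.0401, at most 0.101). H3f3b, a replacement histone, had 665, 669.9 and 646 TPM in Cd38+/+ and 491 to 585 TPM (median 555) in Cd38-/- and did not pass (limma q = 0.0789). Histone genes are near-identical copies of each other, so that their reads could be split, and H2ac18 overlapped once the length and GC trend was removed.
Among 68 genes of the transcription machinery 6 (8.82%, beside 4.82%) were lower and 1 (1.47%, beside 5.32%) higher without overlap. Of these 68, 4 were called lower and 1 higher (7.35% in all, close to the background of 6.83%). Once the length and GC trend was removed, 9 were lower and 2 higher without overlap, beside 13% and 1.82% of all well expressed genes. Polr2e is a subunit shared by all nuclear RNA polymerases. It had 181, 260.0 and 216 TPM in Cd38+/+ and 103 to 139 TPM (median 133) in Cd38-/-, and fell by 0.77 (standard error 0.14, limma q = 0.0150, at most 0.0461). Taf8, of the TFIID complex, had 45.2, 46.4 and 47.1 TPM in Cd38+/+ and 27.9 to 35.3 TPM (median 32.3) in Cd38-/-, and fell by 0.52 (standard error 0.15, limma q = 0.0455, at most 0.0975). Med8 and Med24, both of the Mediator complex, went opposite ways, by -0.53 (standard error 0.15, limma q = 0.0429, at most 0.0919) and 0.97 (standard error 0.22, limma q = 0.0243, at most 0.0683). In RNA processing, with 111 well expressed genes, 6 were lower (5.41%, close to the background of 4.82%) and 3 higher (2.7%, beside 5.32%) without overlap. Lsm4, of the ring that starts mRNA decapping and U6 assembly, had 161, 144 and 155 TPM in Cd38+/+ and 74.8 to 103 TPM (median 92.3) in Cd38-/-, and fell by 0.75 (standard error 0.13, limma q = 0.0114, at most 0.0398). Exosc4, of the exosome, fell by 0.65 (standard error 0.14, limma q = 0.0207, at most 0.0614). Thoc1 and Thoc3, of the THO export complex, fell by 0.51 and 0.63 (limma q = 0.0334 and 0.0430), and Sf3b1, the core of the U2 snRNP, rose by 0.55 (limma q = 0.0439).

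Single genes of the reactive astrocyte rose. Of 16 well expressed members 3 (18.8%, beside 5.32%) were without overlap, all higher, and 4 (25%, beside 6.83%) were called, all higher. With the length and GC trend removed 2 were higher and 2 lower without overlap, beside 1.82% and 13% of all well expressed genes. Gfap is the intermediate filament protein. It had 257, 236 and 371 TPM in Cd38+/+ and 406 to 723 TPM (median 572) in Cd38-/-, and rose by 1.00 (standard error 0.20, limma q = 0.0175, at most 0.0532). C4b, a complement component, had 92.9, 131 and 69.03 TPM in Cd38+/+ and 144 to 226 TPM (median 166) in Cd38-/-, and rose by 0.86 (standard error 0.21, limma q = 0.0281, at most 0.0733). S1pr3 is a receptor for sphingosine 1-phosphate. It had 26.2, 30.1 and 23.9 TPM in Cd38+/+ and 36.1 to 61.3 TPM (median 48.1) in Cd38-/-, and rose by 0.80 (standard error 0.21, limma q = 0.0326, at most 0.0856). The last called member, Cp, encodes the ferroxidase ceruloplasmin; it had 26.1, 14.7 and 34.8 TPM in Cd38+/+ and 31.6 to 60.9 TPM (median 51.2) in Cd38-/-, with overlap, and rose by 0.97 (standard error 0.27, limma q = 0.0395, at most 0.0931). The median of the list was not clear of the background. It lay 0.08 above as deposited and 0.05 below once the length and GC trend was removed, so the median did not keep its direction. For Gfap the genotypes overlapped after median-ratio scaling and after that trend was removed.
Il6st is the gp130 receptor chain through which interleukin 6 family cytokines signal. It had 65.9, 51.9 and 58.8 TPM in Cd38+/+ and 84.8 to 144 TPM (median 105) in Cd38-/-, and rose by 0.87 (standard error 0.17, limma q = 0.0171, at most 0.0564). Gas6, a ligand that bridges dying cells to phagocytic receptors, had 180.4, 231 and 233 TPM in Cd38+/+ and 236 to 395 TPM (median 375) in Cd38-/-, and rose by 0.67 (standard error 0.17, limma q = 0.0320, at most 0.0816), and its receptor Mertk had 41.6, 34.9 and 43.5 TPM in Cd38+/+ and 44.5 to 121 TPM (median 64.2) in Cd38-/- (limma q = 0.0567). Wls, which carries Wnt ligands to the cell surface, had 171, 136 and 283 TPM in Cd38+/+ and 302 to 465.6 TPM (median 349.8) in Cd38-/-, and rose by 0.93 (standard error 0.21, limma q = 0.0231, at most 0.0633). In all 4 genes the Cd38-/- libraries lay above the Cd38+/+ libraries as deposited, and after the length and GC trend was removed this held for Il6st but not for Gas6, Mertk or Wls.
Transport and metabolic genes of astrocytes were mixed. Aqp4 is the water channel of astrocyte end-feet. It had 471, 558 and 369 TPM in Cd38+/+ and 631 to 906 TPM (median 736) in Cd38-/-, and rose by 0.71 (standard error 0.15, limma q = 0.0200, at most 0.0585). Clcn2 is a chloride channel. It had 17.04, 22.3 and 37.4 TPM in Cd38+/+ and 42.1 to 56.1 TPM (median 50.8) in Cd38-/-, and rose by 1.00 (standard error 0.23, limma q = 0.0237, at most 0.0678). Pygb, the glycogen phosphorylase of brain, had 436, 390.4 and 395 TPM in Cd38+/+ and 518 to 674 TPM (median 643) in Cd38-/-, and rose by 0.61 (standard error 0.11, limma q = 0.0150, at most 0.0519). Scd2 is a fatty acid desaturase. It had 1009.6, 1032 and 1083 TPM in Cd38+/+ and 1169 to 1889.9 TPM (median 1552) in Cd38-/-, and rose by 0.55 (standard error 0.14, limma q = 0.0326, at most 0.0826), and Hmgcs1, of cholesterol synthesis, rose by 0.63 (standard error 0.17, limma q = 0.0379, at most 0.0868). Pygb and Scd2 were without overlap under every scaling, whereas Aqp4 overlapped after median-ratio scaling, Hmgcs1 after every other scaling, and Aqp4 and Clcn2 once the length and GC trend was removed. By contrast 0 of 10 genes that handle glutamate and GABA were without overlap. Slc1a3 is the glutamate transporter GLAST. It had 2688, 2379 and 1964 TPM in Cd38+/+ and 2239 to 3389 TPM (median 2748) in Cd38-/-, and Glul, the glutamine synthetase, 1627, 1042 and 855 TPM in Cd38+/+ and 718 to 1109 TPM (median 987) in Cd38-/-, with the genotypes overlapping in both. None of 15 glycolytic enzymes was without overlap.

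Protein folding and Golgi traffic contributed further higher genes. Of 59 chaperone and stress genes 5 were higher (8.47%, beside 5.32%) and 0 lower without overlap, and 5 were called (8.47%, beside 6.83%). After median-ratio scaling the counts were 4 higher and 2 lower, beside 3.19% and 8.03% of all well expressed genes. Once the length and GC trend was removed they were 2 and 3, beside 1.82% and 13%. Hsp90b1, the HSP90 of the endoplasmic reticulum, had 288, 329 and 252 TPM in Cd38+/+ and 377 to 459 TPM (median 384) in Cd38-/-, and rose by 0.47 (standard error 0.12, limma q = 0.0300, at most 0.0792). Dnajb11 is a co-chaperone in the same lumen. It had 73.5, 69.9 and 69.4 TPM in Cd38+/+ and 88.6 to 95.7 TPM (median 92.6) in Cd38-/-, and rose by 0.37 (standard error 0.11, limma q = 0.0477, at most 0.108). Dnaja2 is a cytosolic co-chaperone. It had 47.8, 73.3 and 56.9 TPM in Cd38+/+ and 75.5 to 95.9 TPM (median 89.6) in Cd38-/-, and rose by 0.58 (standard error 0.16, limma q = 0.0361, at most 0.0907). Their median lay 0.04 above the background, and 0.04 to 0.08 above it under the other scalings.
Among 23 Golgi tethers 4 were higher (17.4%, beside 5.32%) and 1, Cog4, lower (4.35%, beside 4.82%) without overlap. Once the length and GC trend was removed, 1 was higher and 2 lower, beside 1.82% and 13% of all well expressed genes. Trappc12, of the TRAPP tethering complex, had 21.7, 40.6 and 16.6 TPM in Cd38+/+ and 42.7 to 59.5 TPM (median 49.6) in Cd38-/-, and rose by 1.00 (standard error 0.25, limma q = 0.0308, at most 0.0804). Cog2 rose by 0.75 (standard error 0.19, limma q = 0.0294, at most 0.0765), from 22.9, 28.4 and 16.8 TPM in Cd38+/+ to 35.8 to 40.3 TPM (median 37.97) in Cd38-/-. Cog4, of the same COG tethering complex, had 69.5, 66.9 and 72.1 TPM in Cd38+/+ and 49.3 to 58.4 TPM (median 51.3) in Cd38-/- and did not pass (limma q = 0.0670), with all Cd38-/- libraries below all Cd38+/+ libraries. Cog6, a further subunit, was under the limit of 20 TPM in wild type, with 15.7, 11.8 and 19.6 TPM in Cd38+/+ and 40.7 to 47.1 TPM (median 44.9) in Cd38-/-, and rose by 1.47 (standard error 0.19, limma q = 0.00427, at most 0.0228).
Actin regulators changed in both directions. Beside Actb, Flna, which crosslinks actin filaments, had 17.1, 30.9 and 34.1 TPM in Cd38+/+ and 40.4 to 88.9 TPM (median 59.6) in Cd38-/-, and rose by 1.14 (standard error 0.29, limma q = 0.0305, at most 0.0792). Wasl, an activator of branched actin growth, had 53.3, 107 and 83.8 TPM in Cd38+/+ and 34.05 to 52.7 TPM (median 39.1) in Cd38-/-, and fell by 0.90 (standard error 0.23, limma q = 0.0310, at most 0.0699). Pfn1, which delivers actin monomers, had 579.8, 456 and 447 TPM in Cd38+/+ and 337 to 403 TPM (median 356) in Cd38-/-, and fell by 0.43 (standard error 0.12, limma q = 0.0362, at most 0.0850). Among 67 cytoskeletal genes 5 were higher (7.46%) and 4 lower (5.97%) without overlap, beside 5.32% and 4.82% of all well expressed genes.

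Some members of the same complex or family differed in direction. The translation factor Eif4a2 had 99.1, 127 and 137 TPM in Cd38+/+ and 162 to 195 TPM (median 179) in Cd38-/-, and rose by 0.56 (standard error 0.13, limma q = 0.0247, at most 0.0678), whereas its near-identical relative Eif4a1 had 221, 193 and 216 TPM in Cd38+/+ and 137 to 173 TPM (median 158) in Cd38-/-, and fell by 0.41 (standard error 0.11, limma q = 0.0376, at most 0.0850). Reads shared by this pair could be split between them. Of the retromer, which returns receptors from endosomes, Vps35 had 108, 106 and 125 TPM in Cd38+/+ and 129 to 172 TPM (median 151) in Cd38-/-, and rose by 0.41 (standard error 0.13, limma q = 0.0492, at most 0.107), while Vps29 had 190.3, 179 and 199 TPM in Cd38+/+ and 105 to 158 TPM (median 155) in Cd38-/- (log2 fold change -0.40, limma q = 0.0741). Of the gamma protocadherins, Pcdhgb6 had 34.6, 20.1 and 26.6 TPM in Cd38+/+ and 45.1 to 84.8 TPM (median 59.03) in Cd38-/-, and rose by 1.14 (standard error 0.24, limma q = 0.0195, at most 0.0607), against the drop of Pcdhgc4. The difference between the members of a pair was not tested. Of the 18 subunits of the V-ATPase, the pump that acidifies lysosomes, 1 was called (5.56%, beside 6.83%). As deposited, 4 were lower (22.2%, beside 4.82%) and 1 higher (5.56%, beside 5.32%) without overlap. The cytosolic ribosome showed few such genes: of 82 well expressed proteins 1 was lower (1.22%) and 2 higher (2.44%) without overlap, and the median lay 0.04 below that of well expressed genes, 0.002 above it after quantile normalization and 0.10 above it once the length and GC trend was removed.

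Some motile cilium and choroid plexus genes rose. Astrocytes lack motile cilia, which are carried by the ependymal cells of the ventricle wall, and Clic6, Folr1, Ttr and Kcnj13 mark the choroid plexus. Of 44 well expressed cilium genes, a list chosen after the data were seen, 5 (11.4%, beside 5.32%) were higher and 0 lower without overlap, 9 (20.5%, beside 6.83%) were called, all higher, and the median lay 0.43 above that of well expressed genes (0.43 to 0.50 above under the other scalings). Once the length and GC trend was removed, 1 of the 44 was higher and 0 lower without overlap, beside 1.82% and 13% of all well expressed genes. Drc1, of the dynein regulatory complex and 13.6 Mb from Cd38 on the same chromosome, had 20.3, 103 and 70.6 TPM in Cd38+/+ and 119 to 254 TPM (median 175) in Cd38-/-, and rose by 1.74 (standard error 0.40, limma q = 0.0239, at most 0.0640). Cfap65 had 20.2, 29.6 and 38.1 TPM in Cd38+/+ and 39.8 to 135 TPM (median 78.7) in Cd38-/-, and rose by 1.34 (standard error 0.33, limma q = 0.0294, at most 0.0772). Cfap69, needed for ciliary beating, had 26.1, 32.4 and 49.5 TPM in Cd38+/+ and 56.5 to 122 TPM (median 68.03) in Cd38-/-, and rose by 1.09 (standard error 0.26, limma q = 0.0275, at most 0.0733). The genotypes stood apart in all 3 as deposited, although they overlapped in all 3 once the length and GC trend was removed, and in Cfap65 the lowest Cd38-/- library stood only just above the highest Cd38+/+ library. Foxj1 is the master regulator of motile cilia. It had 69.9, 109.9 and 201 TPM in Cd38+/+ and 111 to 234 TPM (median 155) in Cd38-/-, with the genotypes overlapping (limma q = 0.227).
Folr1 is the folate receptor. It had 60.9, 34.7 and 57.2 TPM in Cd38+/+ and 69.9 to 138 TPM (median 115) in Cd38-/-, and rose by 1.14 (standard error 0.23, limma q = 0.0180, at most 0.0564). Clic6, a chloride channel protein, had 16.5, 10.8 and 41.9 TPM in Cd38+/+ and 42.3 to 68.4 TPM (median 54.3) in Cd38-/-, and rose by 1.37 (standard error 0.33, limma q = 0.0280, at most 0.0729). Ttr, the thyroid hormone carrier that dominates choroid plexus RNA, had 223, 0 and 0 TPM in Cd38+/+ and 99.6 to 1642 TPM (median 348) in Cd38-/-, and Kcnj13, a potassium channel, 5.05, 0 and 0 TPM and 5.59 to 69.6 TPM (median 18.4); both were called (limma q = 0.0291 and 0.0232), and the values of both include 2 wild-type libraries at 0. The membrane protein Kl (klotho) and the water channel Aqp1 were listed at 0 in all 3 Cd38+/+ libraries, against 0.520 to 27.0 TPM (median 2.37) and 0.110 to 34.1 TPM (median 0.695) in Cd38-/-, and were not called (limma q = 0.0864 and 0.231). Of the 9 well expressed choroid plexus and ependymal markers, 2 (22.2%, beside 5.32%) were without overlap, both higher, and 3 (33.3%, beside 6.83%) were called. With the length and GC trend removed 1 of the 9 was higher and 0 lower without overlap. Ttr counted as well expressed only through 1 Cd38+/+ library, and its genotypes overlapped. Kcnj13, Kl and Aqp1 passed the limit for testing only through their Cd38-/- mean. The summed TPM of all choroid plexus and ependymal markers ran from 3350 to 5956 in Cd38+/+ and from 4200.2 to 7338 in Cd38-/-, and that of the cilium genes from 3022 to 5495 and from 4081 to 7211. Fewer cells of a type and less RNA per cell cannot be told apart in such bulk samples, and the part of ependymal or choroid plexus cells in these values was not tested.
Marker sums of other cell types overlapped between the genotypes. The summed TPM of 14 oligodendrocyte markers ran from 1363 to 7269 in Cd38+/+ and from 3236 to 17884 in Cd38-/-, that of 14 endothelial markers from 655 to 3156 and from 599 to 2059, and that of 5 erythroid markers from 7770.3 to 34711 and from 3805 to 15378. The 14 microglial markers were low in both (111 to 155 and 130.4 to 226), and 11 of them were listed at 0 in some Cd38+/+ library and 0 of them in a Cd38-/- library. The 20 astrocyte markers summed to 74911 to 81313 in Cd38+/+ and 61525 to 80408 in Cd38-/-, and 0 of them was listed at 0 in any library. Apoe, the highest of the 20, made up much of that sum. It had 48498, 44913 and 50487 TPM in Cd38+/+ and 31311 to 46797 TPM in Cd38-/-, with overlap. Of the 20 markers 7 had a log2 fold change below 0 and 13 above.

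**Figure D4:**
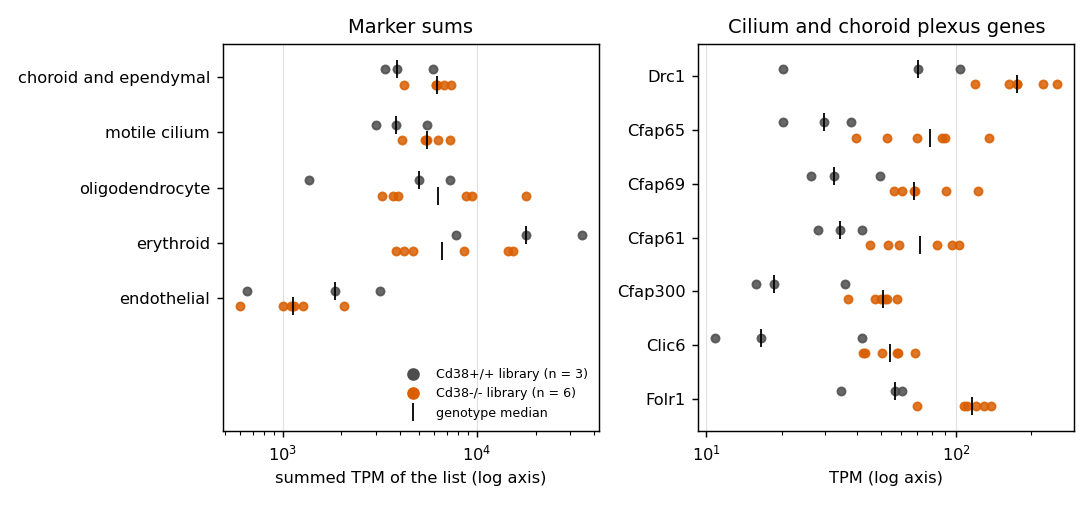
Left, summed TPM (log axis) of 5 marker lists in each of 3 Cd38+/+ (grey) and 6 Cd38-/- (orange) libraries; right, TPM (log axis) of 7 cilium and choroid plexus genes. Bars are genotype medians. The marker sums overlap between genotypes in all 5 lists. The 7 genes at right were picked from genes without overlap. Only 5 of 44 well expressed cilium genes and 2 of 9 choroid plexus and ependymal markers are without overlap.

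Cd38 lies on chromosome 5, and the B6.129P2 strain name records that the allele was made in cells of strain 129P2 and moved to C57BL/6, so that DNA around the gene may differ between the genotypes beyond the disruption itself. Within 10 Mb of Cd38, 46 other genes were well expressed, and 7 of them (15.2%) were without overlap, against 8.99% of 89 genes at 10 to 25 Mb, 11.6% of 320 genes on the rest of the chromosome and 10.0% of 6745 genes on other chromosomes. The 7 were Dhx15 and Tbc1d19 on the higher side and Sod3, Jakmip1, Bod1l, Grpel1 and Lrpap1 on the lower side. Sod3, at 8.48 Mb from Cd38, is described above. Jakmip1, which links microtubules to Janus kinases and lies 6.80 Mb away, had 92.96, 131 and 139 TPM in Cd38+/+ and 46.2 to 79.3 TPM (median 59.7) in Cd38-/-, and fell by 0.97 (standard error 0.19, limma q = 0.0170, at most 0.0523). Dhx15, an RNA helicase of spliceosome disassembly at 8.28 Mb, had 37.4, 26.8 and 21.4 TPM in Cd38+/+ and 44.4 to 55.3 TPM (median 52.3) in Cd38-/-, and rose by 0.83 (standard error 0.19, limma q = 0.0232, at most 0.0676).
Farther out on the same chromosome lay some of the calls kept in every fit that left out 1 library. Slc35f6, a lysosomal and mitochondrial membrane protein at 13.2 Mb, had 98.6, 98.02 and 108 TPM in Cd38+/+ and 33.5 to 63.4 TPM (median 46.3) in Cd38-/-, and fell by 1.07 (standard error 0.20, limma q = 0.0144, at most 0.0461). Tmub1, a ubiquitin-like membrane protein at 19.4 Mb, had 79.5, 81.2 and 78.9 TPM in Cd38+/+ and 41.01 to 51.3 TPM (median 43.6) in Cd38-/-, and fell by 0.84 (standard error 0.14, limma q = 0.00947, at most 0.0372). Crygn, a crystallin at 19.1 Mb, had 56.7, 89.5 and 71.8 TPM in Cd38+/+ and 132 to 189.7 TPM (median 147) in Cd38-/-, and rose by 1.10 (standard error 0.17, limma q = 0.00739, at most 0.0283). Abhd1, a hydrolase-fold protein (chromosome 5, 30950066 to 30955091), lay under the limit of 20 TPM in wild type and had 7.22, 4.93 and 20.8 TPM in Cd38+/+ and 82.3 to 139 TPM (median 102) in Cd38-/-; it rose by 3.33 (standard error 0.33, limma q = 0.00117, at most 0.00664). Each of these 4 genes was without overlap under every scaling. Loss of Cd38 and differences of the flanking DNA cannot be told apart for these genes or for the cilium gene Drc1.

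Transcript length moved with the direction of change. When the 7206 well expressed genes were ranked by the length of their transcripts (7201 had one) and divided into 5 groups of equal size, the shortest group (216 to 1364 bases) had 2.64% of genes higher and 8.26% lower without overlap, and the longest (3742 to 21697 bases) 5.83% higher and 1.88% lower. The median log2 fold change went from -0.08 in the shortest to 0.16 in the longest group. Removal of the trend of each library on these properties also moved the median of well expressed genes to -0.14, with medians from -0.11 in the shortest to -0.18 in the longest group. On that scale the lower side held more genes in every group, with 154 lower and 33 higher in the shortest and 208 lower and 25 higher in the longest. Of the 109 called genes named here, 28 lost their call once the trend was removed, and all but H2ac18 of these were higher in Cd38-/-. Median-ratio scaling ended the calls of 13, all higher, among them Nadk2, Fundc1, Idh3a, Hsp90b1, Dnaja2, Dnajb11, Vps35 and Psmd14. The lists with lower medians differed in length: the mitochondrial ribosome, complex I and proteasome core genes had median transcript lengths of 1223, 838 and 1162.5 bases, and the Klf factors one of 3391.5 bases. The part of transcript length in these values was not tested beyond the removal of the trend.

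**Figure D5:**
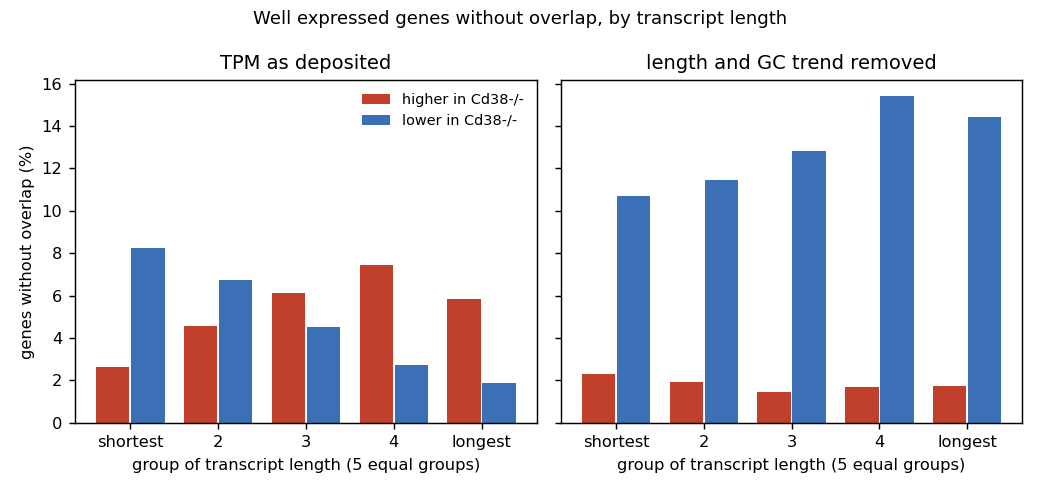
Share of well expressed genes without overlap (%) in 5 groups of transcript length, higher (red) and lower (blue) in Cd38-/-, for TPM as deposited (left) and after removal of each library's length and GC trend (right). As deposited, the lower share drops from 8.26% to 1.88% from the shortest to the longest group; after removal of the trend, which moved the median of all well expressed genes to -0.14, lower genes outnumber higher genes in every group.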

How the data were processed

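Astrocyte RNA was amplified from low input by SMART-Seq v4, depleted of ribosomal RNA and sequenced as paired ends. Per the methods and the labels, the authors trimmed reads with Trim Galore 0.6.4, aligned them to mm10 with STAR 2.7.1a and quantified genes with RSEM 1.2.28; the submitters' processing notes also name DESeq2 1.36.0. The authors deposited TPM, a share of all transcripts of a library corrected for transcript length, with 2 decimals, which have the same sum in each library, so depth is unknown and no counting interval could be given. A low TPM is less precise, and a gene listed at 0 may be a failed estimate. No count model was run. Whether reads were assigned by strand is not given in the sources used here, so reads of overlapping genes could be shared.

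Values were analysed as log2(TPM + 1) with limma 3.58.1 (R 4.3.3; empirical Bayes with trend) over 3 Cd38+/+ and 6 Cd38-/- libraries, for genes with a mean TPM above 5 in either genotype. Calls required a Storey q under 0.05 (lambda 0.05 to 0.95 in steps of 0.05) and at least a 1.2-fold change. Exact tests used scipy 1.17.1. The test script was tested on simulated data; when each genotype was simulated with its own spread, the fit called more unchanged genes than its q threshold allows. GENCODE M21 (GRCm38) gave positions, lengths and GC content for 20503 genes, and RefSeq (GRCm38.p6) the promoters. Median-ratio scaling, quantile normalization, removal of each library's spline (4 degrees of freedom) on transcript length and GC content, other filters and pseudocounts, Benjamini-Hochberg adjustment, library quality weights, a replicate block and the removal of single libraries were tried as alternatives. Same-numbered libraries did not deviate together (r = -0.09, -0.03 and -0.06), so that the numbers were not taken to pair samples.

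The members and gene lists were chosen with earlier results of these data known. Named genes were Cd38, the 12 called, well expressed genes without overlap with the largest change in each direction, up to 6 well expressed members without overlap of each list, or up to 3 of the highest members of lists with fewer than 2 such members, and the highest members of marker lists. Genes named outside this rule were chosen after their values were seen; they were Abhd1, Aqp1, Atp2a3, Atp2b2, Bod1l, Bst1, Cfap69, Coa5, Cog6, Cp, Crygn, Dhx15, Ecrg4, Egr1, Fos, Foxj1, G0s2, H2ac18, H2ax, H2bc6, Hspa9, Irf3, Jakmip1, Jun, Kcnj13, Kl, Klf12, Klf2, Lrpap1, Nampt, Nr2f1, Parn, Psma1, Sarm1, Slc35f6, Slc44a1, Tbc1d19, Tmub1 and Ttr. After values were seen, Pcyox1, which is no pyruvate enzyme, was removed from the pyruvate list.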

Additional observations from a re-analysis of the deposited data

Results flagged for a closer look

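In 9 of 154 named genes and marker sums, 1 Cd38-/- library stood apart from the other 5 by a gap of more than 0.625 of the range of all 6; chance marks about 1 in 20 such groups. Replicate 4 was the library in 4 of them. Its choroid plexus and ependymal markers summed to 4200.15 TPM, against 6119.55 to 7338.34 TPM in the others. Its Folr1, at 69.89 TPM, lay below the 107.48 to 138.36 TPM of the others, and its Ecrg4, at 238.77 TPM, below 307.35 to 351.77 TPM. Its Bst1, at 0.38 TPM, lay above the others, which were listed at 0 to 0.11 TPM.

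The other 5 each came from another library. Sod3 was 9.18 TPM in replicate 6, against 16.04 to 20.11 TPM in the others, and Basp1 was 22.95 TPM in replicate 5, against 32.25 to 36.45 TPM. Psmb8 was 57.41 TPM in replicate 3, against 36.36 to 42.38 TPM, so that this library nearly reached the lowest Cd38+/+ value. Vps29 was 104.62 TPM in replicate 1, against 137.9 to 158.48 TPM, and Aqp1 was 34.13 TPM in replicate 2, against 0.11 to 1.41 TPM.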

How the results depend on the processing

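The Cd38 drop kept its direction under every alternative and passed the threshold under all but library quality weights (-3.142, limma q = 0.109); leaving out 1 library at a time it ranged from -3.076 to -2.813. Counts of called genes were less stable. Against 752 called higher and 218 lower, 1904 and 379 were called with no filter on low values, 250 and 76 with Benjamini-Hochberg adjustment, 1384 and 438 with all 12 libraries in 1 fit, 397 and 871 with the length and GC trend removed, and 0 and 2 with a separate spread of the genotypes. Median-ratio scaling called 392 lower and quantile normalization 387. Quality weights called 1 higher (Abhd1) and 0 lower, although 1186 genes had an unadjusted limma p under 0.05. With the replicate number as a block 1 higher and 1 lower gene, Abhd1 and Cd38, were called (1214 at an unadjusted p under 0.05), and with the trend removed as well 1 and 1; the numbers were not shown to pair samples.

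Leaving out 1 library at a time gave 53 to 2269 genes called higher and 21 to 850 lower: more without Cd38+/+ replicate 1 (1328 and 501), 2 (1394 and 537) or 3 (2269 and 850), and fewer without Cd38-/- replicate 1 (80 and 32), 2 (53 and 21), 3 (441 and 132), 5 (68 and 25) or 6 (117 and 37). Well expressed genes without overlap numbered 370 to 852 lower and 393 to 948 higher, or 770 to 1800 in all, against 347, 383 and 730; with fewer libraries fewer values have to stand apart. Median-ratio scaling gave 230 higher and 579 lower, and removal of the length and GC trend 131 and 934. In 2 alternatives chosen after seeing the data, 4 Cd38-/- libraries without replicates 5 and 6 gave 414 higher and 421 lower, and genes above 20 TPM in each Cd38+/+ library 305 of 5638 higher and 323 lower.

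Of the 109 named genes called, 107 were still called after quantile normalization, 96 after median-ratio scaling, 81 with the length and GC trend removed and 63 with Benjamini-Hochberg adjustment, while 25 to 107 were with 1 library left out. Signs turned for 6 named genes. With the trend removed these were Coa5 (-0.0867), Glud1 (-0.0774), Slc1a3 (-0.0556) and Nampt (-0.1902), the last also after quantile normalization (-0.0284). With the replicate block and the trend removed they were Coa5 (-0.0865), Glud1 (-0.1933), Slc1a3 (-0.1861), Nampt (-0.1252) and Nadk2 (-0.0019), and with the block alone Jun (0.0177). The causes of these changes were not tested. Depth is unknown, so the precision of low genes could not be given.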

Other observations

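The 3 Cd38+/- libraries entered no comparison. For the stable genes on the chromosome of Cd38 they held 87.4, 118 and 101 TPM of Slc35f6, 83.7, 73.6 and 96.2 TPM of Crygn, 38.4, 38.8 and 28.7 TPM of Sod3 and 42.7, 49.7 and 46.1 TPM of Tmub1, and for Cd38 itself 90.8, 90.7 and 90.4 TPM.
Abhd1 was 50.3, 88.6 and 63.4 TPM in Cd38+/-, beside 7.22, 4.93 and 20.8 TPM in Cd38+/+ and 82.3 to 139 TPM (median 102) in Cd38-/-. Among stable genes elsewhere in the genome, Cd38+/- libraries held 10.3, 5.15 and 4.35 TPM of Igfbp3, 26.02, 16.3 and 16.9 TPM of Pcdhgc4, 67.2, 66.2 and 70.5 TPM of Stam and 2814, 2538 and 2441 TPM of Actb. Klf6 was 73.2, 48.2 and 66.3 TPM and Gadd45g 158, 258 and 239 TPM in Cd38+/-. The Cd38+/- libraries were compared with neither genotype, and these values are given as descriptions.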
